A study of Mus with 3 samples.

Results

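The 47 genes described here handle fatty acids, from uptake and activation through oxidation to synthesis, together with the PPAR receptors that regulate many of them. They were chosen by name, and every gene had at least 1 probe on the array, 63 probes in all, of 29668 probes that could be given a name (21982 genes). A gene counted as measured when the signal to noise score of a probe reached 2.6 on all 3 arrays, and its brightest such probe stood for it. By this rule 42 of the 47 genes and 12648 of the 21982 genes were measured.

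Hippocampal RNA came from male Slc:ddY mice, an outbred stock, aged 6 weeks. ASO mice were dosed orally with shochu oil at 2000 mg/kg/day for 15 days, and on day 8 their cerebral ventricles were injected with 5 µL holding 10 nmol of Aβ25-35, a toxic stretch of the amyloid β peptide. ACO mice were dosed with the vehicle, distilled water, for the same 15 days and had the same peptide injection. NCO mice had the same oral vehicle and 5 µL of distilled water by a route not given in the labels; if that was not the ventricles, the act of injection and the peptide cannot be told apart in ACO against NCO. Shochu is a Japanese spirit, here made from sweet potato, and the oil holds its oil components. The hippocampus was taken after the Y-maze test of day 16, which scores short-term memory, and RNA from the 10 mice of a group was pooled onto 1 one-colour Agilent array. With 1 array a group no test was possible, and no difference below has a replicate check.

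Fatty acids enter cells through carriers, are bound by small cytosolic proteins and are activated to acyl-CoA. The carnitine shuttle carries long-chain acyl-CoA into mitochondria, where β-oxidation shortens it step by step and hands electrons to the electron transfer flavoprotein. PPARα, PPARδ and PPARγ are nuclear receptors that bind fatty acids and switch on genes of this route. In the brain, fatty acid oxidation is known mainly from astrocytes, while neurons use little fat as fuel.

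Signals are background-corrected spot intensities scaled to a common 75th percentile, and differences are log2(signal + 50) of the first named array minus the other, with ratios and folds likewise of signal + 50. A gene was called higher or lower at a difference of at least 1.2-fold, which is 0.26 on the log2 scale. Of 12648 genes, 19.4% were at least 1.2-fold apart for ASO against ACO, 18.6% for ASO against NCO and 5.42% for ACO against NCO. Among 250 probes printed at 10 spots each, the median SD of a difference over the spots was 0.09 for ASO against ACO, 0.10 for ASO against NCO and 0.08 for ACO against NCO, a spread that leaves out the mice. Surroundings of a spot are the median difference of the gene spots within 5 rows and columns of it, and a corrected value has them subtracted. In tissue RNA, fewer cells of a type and less RNA per cell cannot be told apart. The 3 comparisons share arrays, so they are not independent of each other.

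The oil comparison, ASO against ACO, asked what the oral oil did to the fatty acid genes of peptide-injected mice. Acot1, an acyl-CoA thioesterase, and Plin2, the coat protein of lipid droplets, were higher on the ASO array, as were Ucp2, Slc27a1 and 1 of 3 Ppara probes. Genes of fatty acid activation (Acsl4, Acsl1), of oxidation (Acadl, Ehhadh, Etfdh), Angptl4 and Fads1 were lower. By any amount 20 of 42 were higher (46.4% of all genes) and 22 lower (53.6% of all genes). In all, 5 of 42 genes were at least 1.2-fold higher, where 9.87% of all genes were, and 7 of 42 at least 1.2-fold lower, where 9.54% were. The difference of 1.2-fold was thus reached by 28.6% of the measured fatty acid genes, beside 19.4% of all genes, and after correction for surroundings by 19.0%, beside 17.8%. Scaling to the array median gave 2 higher and 13 lower genes in place of 5 and 7, while the median of all genes moved to -0.12 with it. None of the 42 was 2-fold apart in any comparison, where 0.221% of all genes were for ASO against ACO, 0.261% for ASO against NCO and 0.0712% for ACO against NCO. The median difference of the 42 genes was -0.02, the same to 2 decimals as the -0.02 of all genes.

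Set against the normal controls, ASO had 6 of 42 genes past 1.2-fold on the higher side (10.2% of all genes), Slc27a1, Acot1, Plin2, Cpt2, Pdk2 and Ucp2. On the lower side were 4 (8.44% of all genes), Acsl4, Hadhb, Angptl4 and Fads1. Scaling to the array median gave 5 and 8 in place of 6 and 4. By any amount 19 were higher (46.6% of all genes) and 23 lower (53.4% of all genes), with a median of -0.02, and again -0.02 over all genes.

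The peptide comparison, ACO against NCO, asked what the injected peptide did to the same genes. No fatty acid gene was 1.2-fold higher or lower, where 2.76% of all genes were higher and 2.66% lower, and by any amount 24 were higher (52% of all genes) and 18 lower (48% of all genes). Differences ran from -0.15 (Cpt1c) to 0.25 (Ucp2), with Acadl at 0.25 and Slc25a20 at 0.23 next to it. With 16 in place of 50 added before log2, 3 genes passed the same limit in that comparison, Ucp2, Acadl and Slc25a20. The largest differences of the fatty acid genes thus lay in the comparisons that hold the ASO array, in which all genes were also more often apart.

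**Figure D1:**
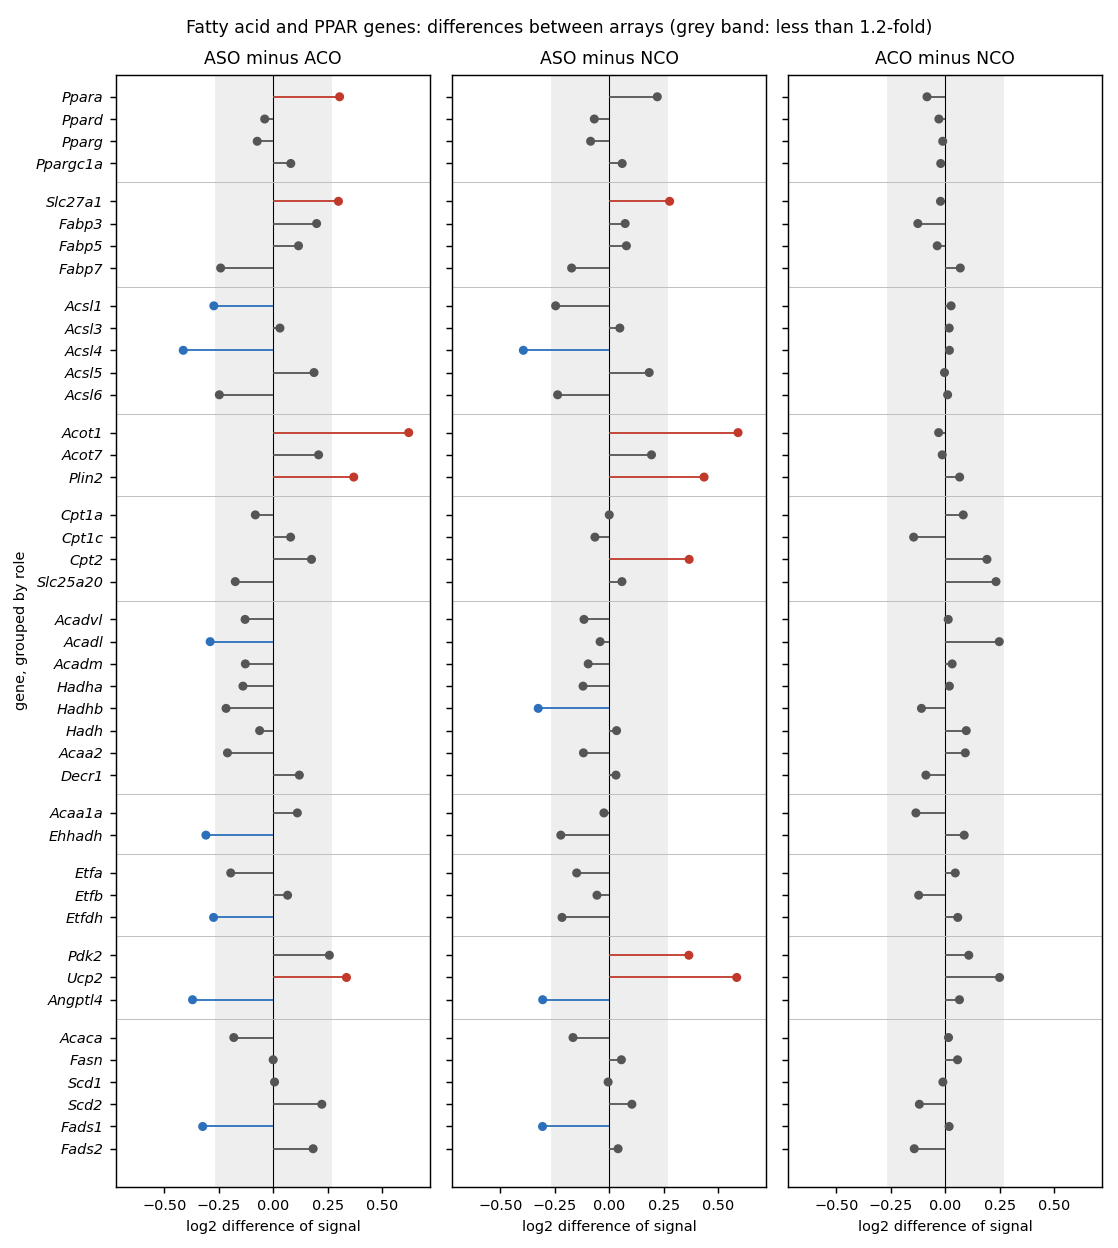
Differences of the 42 measured fatty acid genes between arrays, grouped by role from receptors at the top to synthesis at the bottom, as log2(signal + 50) of the first named array minus the other. Red points are at least 1.2-fold higher, blue points at least 1.2-fold lower and grey points less than 1.2-fold apart; Acot1 lies furthest right in the ASO panels, at 0.62 and 0.59, and no point leaves the grey band for ACO minus NCO.

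Among the receptors, Ppara, which encodes the main activator of oxidation genes, had a signal of 254 on ASO, 196 on ACO and 211 on NCO at its brightest probe. This probe was past the limit for ASO against ACO (0.30, a ratio of 1.23) and stood at 0.22 against NCO. The other Ppara probes gave 0.16 and 0.02 for ASO against ACO, so the call rested on 1 of 3 probes, and it held under 5 of 9 processing alternatives. Ppard, the receptor of broadest expression, was close to level at 875 on ASO, 900.3 on ACO and 920.0 on NCO. Pparg, the receptor that drives fat cell formation, was printed at 10 spots and had mean signals of 125 on ASO, 134 on ACO and 136 on NCO. Its difference was -0.07 ± 0.08 for ASO against ACO and -0.01 ± 0.10 for ACO against NCO (SD over 10 spots), both less than the spread of its spots. Ppargc1a, a coactivator of mitochondrial genes, read 1922 on ASO, 1815 on ACO and 1843 on NCO at its brighter probe. That probe stood at 0.08 for ASO against ACO and its dimmer one at -0.25, on opposite sides of 0.

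Uptake genes were measured less completely. Cd36, a fatty acid translocase, was not well above background on any array, with foreground intensities of 58, 61 and 60 against local backgrounds of 49, 43 and 49 on ASO, ACO and NCO. Slc27a1, a fatty acid transport protein, had a signal of 561 on ASO, 447 on ACO and 455 on NCO. It was thus highest on ASO, at 0.30 against ACO and 0.28 against NCO, but spots around it were also brighter there by 0.10 and 0.16, and after correction for them it stood at 0.20 and 0.12. Slc27a4, a related transporter, was well above background on ASO alone, with 61.5 on ASO, 51.7 on ACO and 48.1 on NCO. The ratio of these dim signals was 1.10 for ASO over ACO and 1.14 for ASO over NCO.

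The fatty acid binding proteins carry fatty acids through the cytosol, and all 3 were measured. Fabp5, the most widely expressed of them, read 16366 on ASO, 15101 on ACO and 15498 on NCO. Fabp3, the form first known from heart, read 4655 on ASO, 4050.3 on ACO and 4425 on NCO, and its probes stood at 0.20 and 0.10 for ASO against ACO. Fabp7, the form of astrocytes and radial glia, stood on the other side with 3267 on ASO, 3871 on ACO and 3689 on NCO, at -0.24 for ASO against ACO and -0.17 against NCO. None of the 3 reached 1.2-fold in a comparison.

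Of the 5 acyl-CoA synthetases, which activate long-chain fatty acids, 3 were lower on ASO than on ACO (53.6% of all genes) and 2 higher (46.4% of all genes), a split near that of all genes, with a median of -0.25. Acsl4, which prefers arachidonic acid, had a signal of 3690.5 on ASO, 4929 on ACO and 4865 on NCO. The ASO array was the low one, at -0.41 against ACO and -0.39 against NCO, and Acsl4 stayed past the limit under all 9 processing alternatives, from -0.53 to -0.36 and from -0.48 to -0.30. Acsl1, the main synthetase of oxidative tissues, read 2349.6 on ASO, 2848 on ACO and 2796 on NCO and was lower by the same limit against ACO (-0.27), but its dimmer probe stood at -0.03 and the call held under 5 of 9 alternatives. Acsl6, a synthetase of neurons with a preference for docosahexaenoic acid, read 1152 on ASO, 1377 on ACO and 1367 on NCO, just short of the limit at -0.25. Acsl5 was higher on ASO, with 743 on ASO, 647 on ACO and 648 on NCO (0.19 against ACO), and Acsl3, which acts at nascent lipid droplets, was level, with 614 on ASO, 600.0 on ACO and 592 on NCO. ACO and NCO differed by 0.03 or less in each of the 5 genes.

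The thioesterases hydrolyse acyl-CoA back to free fatty acid, and Acot1 gave the largest difference of all 42 genes. Its signal was 1606 on ASO, 1027 on ACO and 1049.8 on NCO, a ratio of 1.54 for ASO over ACO and of 1.51 for ASO over NCO. ACO against NCO stood at -0.03, and the ASO difference kept between 0.51 and 0.65 against ACO and between 0.50 and 0.66 against NCO over the 9 alternatives. Acot1 had 1 probe, at 1 spot, and the spots around it stood at 0.02 for ASO against ACO. Acot1 is one of a cluster of closely related thioesterase genes, whose transcripts the probe may not separate, although its listed hits named only Acot1. Acot2, the mitochondrial member of that cluster, was dim, with 49.6 on ASO, 51.7 on ACO and 57.7 on NCO, and was not well above background on ACO. Acot7, a thioesterase abundant in brain, read 18007 on ASO, 15586 on ACO and 15742 on NCO and stood at 0.21 for ASO against ACO, with its surroundings at 0.13.

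Plin2, which coats lipid droplets and is a known PPAR target, had a signal of 350.1 on ASO, 259.8 on ACO and 246 on NCO. It was 1.29-fold higher on ASO than on ACO (0.37) and 1.35-fold higher than on NCO (0.43), while ACO and NCO differed by 0.07. After correction for its surroundings it stood at 0.28 against ACO and 0.29 against NCO, still past the limit, as under the other 8 alternatives.

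Genes of the carnitine shuttle lay close together on ASO and ACO. Cpt1a, the rate-limiting transferase of the outer mitochondrial membrane, was printed at 10 spots and read 756 on ASO, 803 on ACO and 752 on NCO, with -0.08 ± 0.11 for ASO against ACO and 0.08 ± 0.10 for ACO against NCO (SD over 10 spots). Cpt1c, the neuronal form, read 2754 on ASO, 2604 on ACO and 2885 on NCO, and both its probes were a little lower on ACO than on NCO, at -0.15 and -0.17. Cpt2, the transferase of the inner membrane, was highest on ASO and lowest on NCO, with 388 on ASO, 338 on ACO and 289.7 on NCO, and passed the limit for ASO against NCO (0.37, a ratio of 1.29) and not for ASO against ACO (0.18). Slc25a20, the carrier that exchanges acylcarnitine for carnitine, was dim and highest on ACO, with 104 on ASO, 124 on ACO and 98.1 on NCO.

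Enzymes of mitochondrial β-oxidation were mostly a little lower on ASO: 7 of 8 measured genes were below ACO, where 53.6% of all genes were, with a median of -0.13, and 6 of 8 were below NCO, where 53.4% of all genes were, with a median of -0.11. Under the 9 alternatives the median against ACO ran from -0.24 with scaling to the array median to -0.12 after correction for surrounding spots. Acadl, the long-chain acyl-CoA dehydrogenase, had a signal of 445 on ASO, 555 on ACO and 460.1 on NCO, so that ACO stood above both other arrays; it was the 1 gene of the group past the limit for ASO against ACO, at -0.29. Acadvl and Acadm, the dehydrogenases of very long and medium chains, stood at -0.13 and -0.13 against ACO. Acads, the short-chain dehydrogenase, was not well above background on any array.

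Hadha and Hadhb encode the α and β subunits of the trifunctional protein, which carries out the later steps on long chains. Hadhb read 3967 on ASO, 4618 on ACO and 4986 on NCO and was past the limit for ASO against NCO (-0.33), while against ACO it stood at -0.22. Its corrected value against NCO was -0.26, just short of the limit, which it passed under the other 8 alternatives. Hadha read 625 on ASO, 693 on ACO and 684 on NCO, at -0.14 against ACO. Acaa2, the thiolase of the last step, was printed at 10 spots and had mean signals of 3999 on ASO, 4647 on ACO and 4363 on NCO. All its 10 spots were lower on ASO than on ACO, from -0.37 to -0.08, with a mean of -0.21 ± 0.09 (SD over 10 spots), and its mean for ACO against NCO was 0.09 ± 0.07. Hadh, the dehydrogenase of shorter chains, stood at -0.06 against ACO. Decr1, which prepares unsaturated chains, stood at 0.12, and its dim probe at -0.07.

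Peroxisomes shorten very long chains. Ehhadh, the peroxisomal bifunctional enzyme and a PPARα target in liver, was the member closest to the detection limit among those measured, with a lowest signal to noise score of 3 and signals of 60.5 on ASO, 86.9 on ACO and 78.9 on NCO. It was past the limit for ASO against ACO, at -0.31, and lowest on ASO of the 3 arrays. Just outside the limit lay Acot2, with scores of 2.64 on ASO, 2.17 on ACO and 3.64 on NCO. Acaa1a, the peroxisomal thiolase, read 9652 on ASO, 8938 on ACO and 9819.9 on NCO and stood at 0.11 against ACO.

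Electrons from β-oxidation pass through the flavoprotein made of Etfa and Etfb to Etfdh, its dehydrogenase in the inner membrane. Etfdh read 1146 on ASO, 1395 on ACO and 1339 on NCO and was past the limit for ASO against ACO, at -0.27, a call that held under 6 of 9 alternatives. Etfa read 1964 on ASO, 2255 on ACO and 2184 on NCO, and its probes were both lower on ASO, at -0.20 and -0.48 against ACO. Etfb read 8310.2 on ASO, 7939 on ACO and 8645 on NCO, at 0.07 against ACO and -0.06 against NCO, both within the median spot SD.

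**Figure D2:**
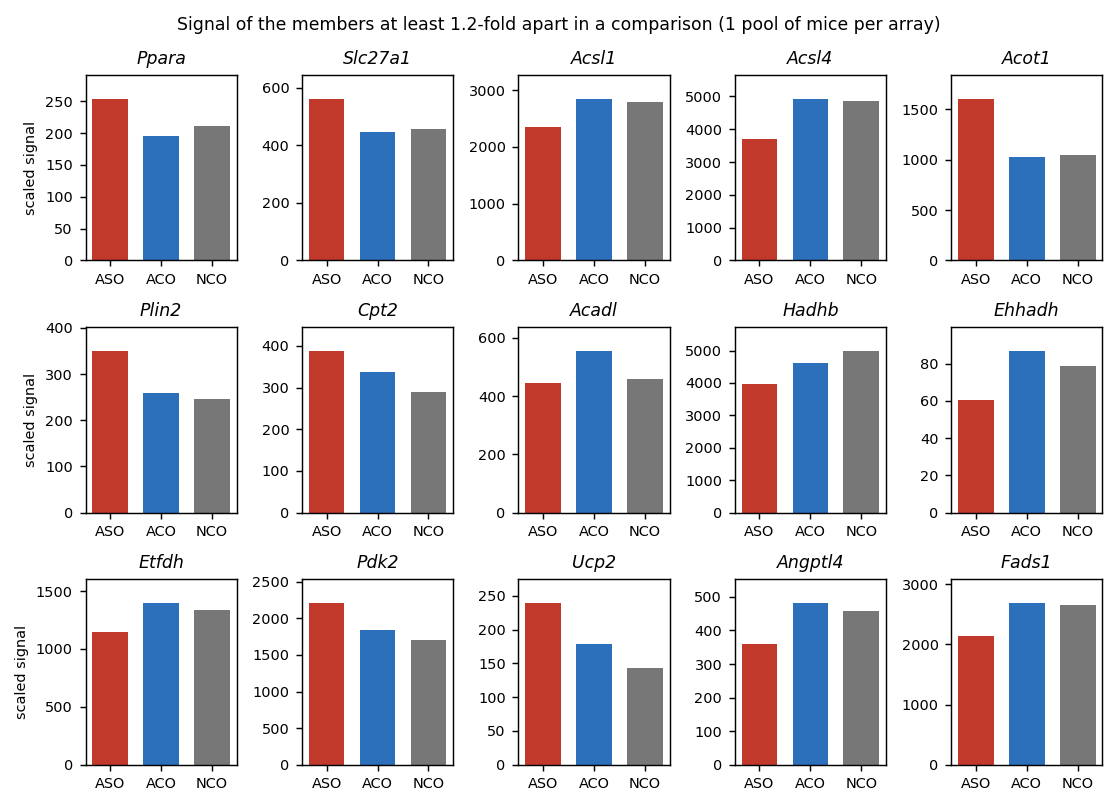
Scaled signal on the ASO, ACO and NCO arrays of the 15 fatty acid genes that were at least 1.2-fold apart in a comparison; each bar is 1 array with RNA pooled from 10 mice, the axes start at 0 and differ between genes. For Acot1, Plin2, Slc27a1, Acsl4, Angptl4 and Fads1 the ACO and NCO bars are close and the ASO bar stands apart, while Cpt2, Pdk2 and Ucp2 are highest on ASO and lowest on NCO, and Acadl is highest on ACO.

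Ucp2 encodes a carrier of the inner mitochondrial membrane that is abundant in microglia and other immune cells. Its signal was 239 on ASO, 179 on ACO and 143 on NCO, highest on ASO and lowest on NCO. The difference was 0.34 for ASO against ACO, 0.58 for ASO against NCO (a ratio of 1.5) and 0.25 for ACO against NCO. Markers of microglia stood higher on ASO as well: 13 of 14 were above ACO, with a median of 0.47, and 12 of 14 above NCO. Their summed signal was 50718 on ASO, 37641 on ACO and 42764 on NCO. For ACO against NCO 6 of 14 were higher and 8 lower, with a median of -0.08, and the gap between those sums was mostly Itgam, with 4795 on ASO, 3764 on ACO and 8531 on NCO. Of the disease-associated microglia markers 11 of 11 were above ACO, with sums of 21071, 14886 and 13937 on ASO, ACO and NCO. Of the astrocyte markers 11 of 12 were above ACO, with a median of 0.11 and sums of 87820, 79429 and 75642. Of all genes 46.4% were above ACO and 46.6% above NCO. For ACO against NCO 7 of 12 astrocyte markers were higher (52% of all genes), with a median of 0.01. Aldoc, with 40716 on ACO and 35358 on NCO, differed by more than their ACO and NCO sums did. The remaining astrocyte markers together thus summed lower on ACO than on NCO. The part of these cell types in the fatty acid results was not tested.

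Pdk2 and Pdk4 encode kinases that shut off pyruvate dehydrogenase and so spare glucose when fat is burned. Pdk2 read 2208 on ASO, 1839 on ACO and 1704 on NCO at its brighter probe, past the limit for ASO against NCO (0.36) and just short of it against ACO (0.26). Its dimmer probe stood at 0.20 and -0.03, and the spots around the brighter one at 0.16 and 0.13. Pdk4, a strong PPAR target in muscle and liver, was measured on ACO and NCO only, with 166 on ASO, 188 on ACO and 201 on NCO. On ASO its score of 1.95 missed the limit. The ratio was 1.10 for ACO over ASO and 1.17 for NCO over ASO, with the ASO signal not well above background.

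Angptl4, a secreted inhibitor of lipoprotein lipase and another PPAR target, had a signal of 361 on ASO, 481 on ACO and 458 on NCO. It was lower on ASO, at -0.37 against ACO and -0.31 against NCO, and past the limit under all 9 alternatives.

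Synthesis starts with Acaca, acetyl-CoA carboxylase, and Fasn, fatty acid synthase. Fasn was level, with 346 on ASO, 346 on ACO and 331 on NCO. Acaca read 3277 on ASO, 3722 on ACO and 3684 on NCO at its brightest probe, -0.18 for ASO against ACO, while its other measured probe stood at -0.05. The desaturases Scd1 and Scd2 make monounsaturated fatty acids. Scd1 was level, with 1623 on ASO, 1616 on ACO and 1629 on NCO, although spot means put it at 0.12 for ASO against ACO, and Scd2, the form abundant in brain, read 32832 on ASO, 28131 on ACO and 30556 on NCO, at 0.22 for ASO against ACO.

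Fads1 and Fads2 are the desaturases that make arachidonic and docosahexaenoic acid from dietary precursors. Fads1 had a signal of 2135 on ASO, 2685 on ACO and 2652 on NCO, so that ACO and NCO were nearly equal and ASO was the low array. The difference was -0.32 against ACO and -0.31 against NCO. Its surroundings stood the other way, at 0.15 against each, and the corrected differences were -0.47 and -0.45. Fads2 stood at 0.18 for ASO against ACO at its brighter probe and at -0.01 at its dimmer one.

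Different probes of 1 gene gave a further measure of spread, in which error, transcript differences and dimness of a probe cannot be told apart. For the 10 genes with more than 1 measured probe, the probes lay a median of 0.22 apart for ASO against ACO, and fell on the same side of 0 in 6 of 10. For ASO against NCO they lay 0.19 apart with 4 of 10 on the same side, and for ACO against NCO 0.07 apart with 8 of 10. The other 32 measured genes rested on 1 probe each, and 39 of the 42 on 1 spot. Of the genes past the limit, Ppara, Acsl1 and Pdk2 had other measured probes, none of which reached 1.2-fold.

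**Figure D3:**
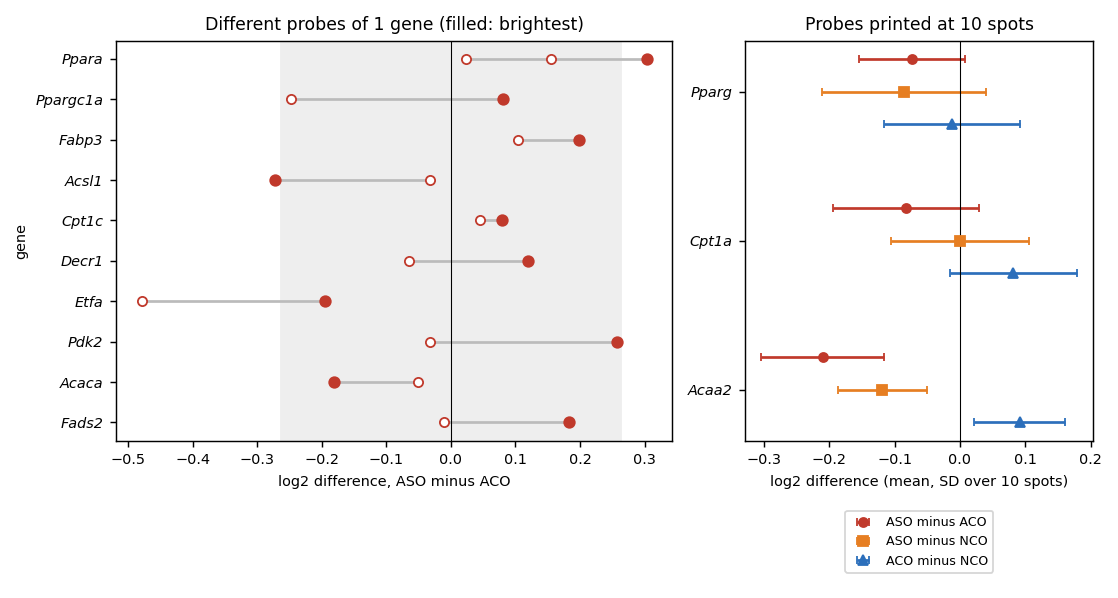
Left, log2 difference for ASO minus ACO of every measured probe of the 10 fatty acid genes with more than 1; filled points are the brightest probe, the grey band is less than 1.2-fold, and the Etfa probes at -0.20 and -0.48 and the Ppargc1a probes at 0.08 and -0.25 show how far probes of 1 gene lay apart. Right, mean and SD over 10 spots of the 3 genes printed 10 times, for each comparison; the Acaa2 value of -0.21 for ASO minus ACO lies furthest from 0.

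A wider list of 118 other genes of fatty acid metabolism, also picked by function, had 93 measured genes. For ASO against ACO 7 of the 93 were at least 1.2-fold higher and 7 at least 1.2-fold lower (9.87% and 9.54% of all genes), with a median of -0.06. For ASO against NCO 4 were higher and 6 lower (10.2% and 8.44% of all genes), and for ACO against NCO 1 higher and 1 lower (2.76% and 2.66%). Each of these shares was below that of all genes.

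Among other genes of lipid droplets, Pnpla2, which encodes the adipose triglyceride lipase of lipid droplets, read 642 on ASO, 506 on ACO and 436 on NCO, at 0.32 against ACO and 0.51 against NCO, the largest difference of the list in that comparison. Abhd5, the activator of that lipase, stood at 0.27 for ASO against ACO and at 0.01 against NCO, but its other probe gave -0.04 against ACO and the call held under 4 of 9 alternatives. Plin3, another droplet coat protein, was at 0.18 and 0.22, and Dgat2, which makes triglyceride, at -0.21 and -0.25. Of the 9 measured genes of this group 4 were higher on ASO than on ACO, near the 46.4% of all genes, with a median of -0.03.

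Ucp3, the uncoupling protein best known from muscle, stood on the same side as Ucp2, with 244 on ASO, 167 on ACO and 166 on NCO (0.44 for ASO against ACO). Acsf2, a medium-chain acyl-CoA synthetase, read 3614 on ASO, 2721 on ACO and 2625 on NCO, and was high on ASO against both others, at 0.40 and 0.45. Srebf1, the transcription factor of lipid synthesis, read 215 on ASO, 145 on ACO and 176 on NCO (0.44 against ACO), Pdk1 stood at 0.37 and Acaa1b, a peroxisomal thiolase and close relative of Acaa1a, at 0.34. With Pnpla2 and Abhd5 these were the 7 genes higher on ASO than on ACO.

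Of the 7 lower genes, Phyh, the enzyme of phytanic acid α-oxidation, read 2623 on ASO, 3321 on ACO and 3218 on NCO (-0.33 against ACO and -0.29 against NCO), and Abcd3, a peroxisomal transporter of acyl-CoA, read 4457 on ASO, 5632 on ACO and 5202 on NCO (-0.33 against ACO). The acyl-CoA dehydrogenase genes Acad11 and Acad9 stood at -0.34 and -0.27, the coactivator gene Ncoa2 at -0.37 and Acot6 at -0.32. Acss2, which activates acetate, stood at -0.31 (its other probe at -0.16). The call held under 7 of 9 alternatives for Acad9 and under 6 of 9 for Acss2. Of the other genes of mitochondrial oxidation 8 of 10 were lower on ASO than on ACO, with a median of -0.13, and of the other peroxisomal genes 8 of 13, with a median of -0.09, where 53.6% of all genes were. Against NCO 7 of 10 mitochondrial genes were lower, with a median of -0.07, and 8 of 13 peroxisomal genes, with a median of -0.14, where 53.4% of all genes were. The peroxisomal counts lay near those shares. Against NCO, Scp2, Crot and Acly, which makes cytosolic acetyl-CoA from citrate, were also past the limit on ASO, at -0.27, -0.28 and -0.30, as was Acad11 at -0.36, while the other Scp2 probe stood at -0.11. Acacb, the mitochondrial acetyl-CoA carboxylase, was dim, with 152 on ASO, 150 on ACO and 116 on NCO. It stood at 0.28 for ASO against NCO and 0.26 for ACO against NCO, and each call held under 6 of 9 alternatives. Within the thioesterase cluster of Acot1, Acot3 was dim and lowest on ACO, with 90.3 on ASO, 73.6 on ACO and 126 on NCO (0.18 for ASO against ACO, -0.33 for ASO against NCO and -0.51 for ACO against NCO). The Acot3 call for ASO against NCO held under 6 of the 8 alternatives that measured it. Acot5 was level, at 0.01 for ASO against ACO, while Acot6, given above, stood at -0.32, on the side opposite to Acot1.

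**Figure D4:**
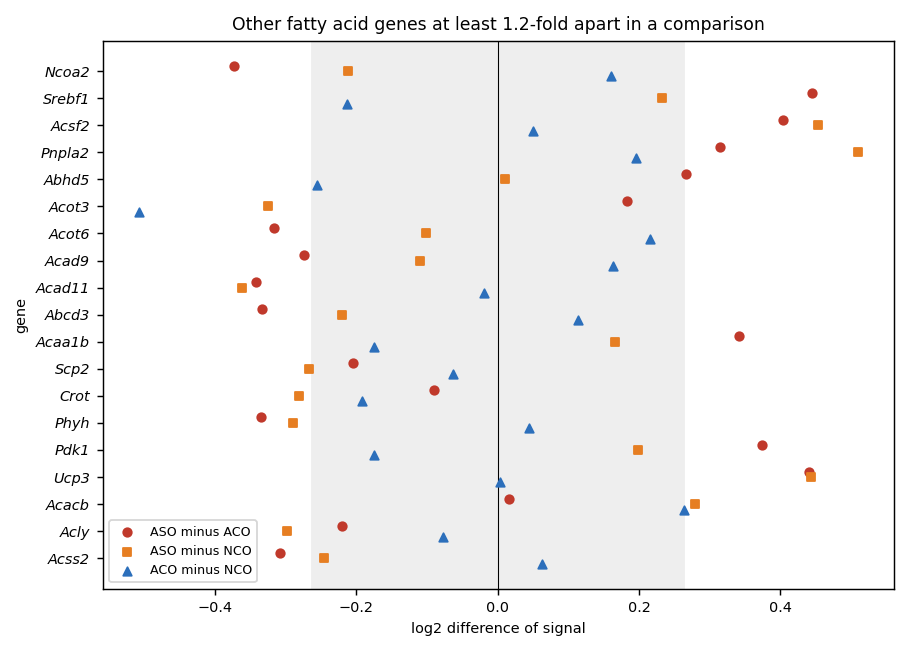
Log2 differences of the 19 genes of the wider fatty acid list that were at least 1.2-fold apart in a comparison; circles are ASO minus ACO, squares ASO minus NCO and triangles ACO minus NCO, and the grey band is less than 1.2-fold. Acsf2, Pnpla2 and Ucp3 lie right of the band in both ASO comparisons, and Acad11 and Phyh left of it.

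The arrays themselves set limits on these values. Of 39429 gene probes, the share above background was 53.7% on ASO, 51.7% on ACO and 50.9% on NCO, and log2 signals of the 12648 genes correlated at r = 0.994 for ASO with ACO and with NCO and 0.998 for ACO with NCO. Spike-in control transcripts, over 5 probes, had medians of 0.48 in ASO against ACO (0.41 to 0.82) and of 0.34 in ASO against NCO (0.26 to 0.68). All 5 were higher on ASO in both. For ACO against NCO 0 of 5 were higher, with a median of -0.14. The labels do not say whether equal amounts were added, and the part of the spike-ins in the fatty acid results was not tested. For the marker counts that follow, 46.4% of all genes were higher on ASO than on ACO and 53.6% lower. On ACO 52% of all genes were higher than on NCO. All 12 hippocampal neuron markers were measured on all arrays, and 6 were higher and 6 lower on ASO than on ACO, near those shares. Their sums were 33446 on ASO, 32548 on ACO and 31870 on NCO. Calb1 and C1ql2, both known from dentate granule cells, stood at -0.49 and -0.32 for ASO against ACO, and Wfs1 at 0.35. Of 4 measured blood cell markers 3 were higher on ASO than on ACO, from S100a9 at -0.68 to Hbb-b2 at 0.93, with sums of 11150 on ASO, 10305 on ACO and 10139 on NCO. Of 4 fat cell markers, Adipoq, Cfd and Lep were not well above background and Retn was dim, with 98.2 on ASO, 91.7 on ACO and 128 on NCO. Of 11 measured choroid plexus markers, a neighbouring tissue, 2 were higher on ASO than on ACO and 10 higher on ACO than on NCO, with a median of 0.50 in the ACO comparison. Their summed signals of 22312 on ASO, 22142 on ACO and 25506 on NCO were mostly Ttr, the 1 marker lower on ACO than on NCO. Of 11 oligodendrocyte markers 8 were higher on ASO than on ACO and none on ACO than on NCO, with sums of 94004 on ASO, 82414 on ACO and 93021 on NCO.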

How the data were processed

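Each array held Cy3-labelled RNA (200 ng, per the labels) pooled in equal parts from 5 sets of 2 mice. The arrays lay at positions 4 (ASO), 2 (ACO) and 1 (NCO) of a slide of 4 arrays, per the file headers. Whether they shared a slide was not checked. In 1 place the labels' protocol gives the injected oil group a name that no sample carries; it was taken as ASO. Foreground and background intensities were deposited without normalization, from a GenePix 4000B scanner at 532 nm and GenePix Pro 6.1.0.4, per the file headers. Each spot's signal to noise score and percent of saturated pixels are also deposited values, per the file headers. No fatty acid probe held saturated pixels. The authors' deposited table of intensities lists 475 probes, 0 of them for these genes, so it was not used. The submitters' processing notes name Agilent Feature Extraction, but the files hold GenePix columns.

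The foreground median of all 45220 spots was corrected by the local background median with normexp (saddle fit, no offset; limma 3.58.1, R 4.3.3), and control spots then removed. The 43020 gene spots of each array were scaled to a common 75th percentile (factors of 0.992, 0.950 and 1.06 on ASO, ACO and NCO), 50 was added, which draws differences of dim probes towards 0, and replicate spots were averaged as log2 values. Python 3.11.15, numpy 2.4.6 and pandas 2.3.3 were used, and the steps were tested on simulated data. Other genes were named through RefSeq (GRCm38.p6, names only): 26581 probes by accession, 2597 by symbol and 490 by synonym. Ratios of Slc27a4 and Pdk4 set the brighter array's signal against the dimmer array's own signal. That dimmer signal was not well above background, so these ratios are no lower bounds. The number of arrays limits the precision, and there are no p-values. All 47 genes are named, and of the wider list the genes at least 1.2-fold apart; others named from it (Plin3, Dgat2, Acot5 and those of the closing observations) and the single markers were picked with their values in view. The genes, lists and limits were chosen with earlier results of these data known.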

Additional observations from a re-analysis of the deposited data

How the results depend on the processing

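Of the counts and medians of the fatty acid genes recomputed under 9 alternatives, 71 stayed within 1.5 times the count or within the spot SD of the median, and 10 did not. No gene at least 1.2-fold apart changed sign under any of the 9. For ASO against ACO, spot means left 4 genes lower in place of 7 (without Acadl, Acsl1 and Etfdh), and correction by surrounding spots left 3 higher in place of 5 (without Ppara and Slc27a1). Scaling to the array median, an alternative chosen after seeing the data, gave 2 higher and 13 lower genes and a median of -0.13 for ASO against ACO, and 8 lower genes in place of 4 for ASO against NCO; the median of all genes moved to -0.12 and -0.10 with it, since this scaling shifts all genes alike. For ACO against NCO, where no gene was called, plain background subtraction gave 2 higher (Slc25a20 and Ucp2), 16 added before log2 gave 3 (also Acadl), correction by surrounding spots gave 1 (Ucp2) and scaling to the median gave 2 (Acadl and Ucp2). Where not stated, the cause was not tested. Quantile normalization, a stricter filter on dim probes, none, and the mean over a gene's probes moved no count or median past these limits. The alternative with the authors' deposited table could not be run, since it lists none of the genes. No paired analysis was possible because each group is 1 array, and for the same reason no replicate could be left out. Signal over background limits Ehhadh and Slc25a20 most among measured genes, with lowest scores of 3 and 5.22.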

Other observations

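Oxct1, the enzyme that lets cells burn ketone bodies, an alternative fuel of the brain, was nearly level. It read 12125 on ASO, 12542 on ACO and 12610.2 on NCO (-0.05 for ASO against ACO). Of 5 ketone body genes 5 were lower on ASO than on ACO, where 53.6% of all genes were, with a median of -0.07. The 5 differences were small, from -0.10 to -0.05, close to or within the median spot SD of 0.09. Of these 0 reached 1.2-fold, where 19.4% of all genes did.

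Of the other genes of synthesis and elongation 12 of 20 were lower on ASO than on ACO, where 53.6% of all genes were, with a median of -0.06. Hacd2 of this group stood at -0.25. Elovl2, which elongates the precursors of docosahexaenoic acid, read 262 on ASO, 312 on ACO and 315 on NCO (-0.22 for ASO against ACO), the same direction as Fads1, while Elovl5 stood at -0.09 and Elovl4, the elongase of very long chains, at 0.05. Mfsd2a, the carrier that brings docosahexaenoic acid across the blood-brain barrier, stood at -0.10 and Lpl, the target of Angptl4, at -0.24. Hacd2, Elovl2, Elovl5, Elovl4, Mfsd2a and Lpl did not reach 1.2-fold in a comparison.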
